A study of Homo sapiens with 9 samples.

Results

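The mRNAs of 7 genes of cellular iron homeostasis were examined in eCLIP libraries of MDH2, the mitochondrial malate dehydrogenase. eCLIP maps the positions at which a protein was cross-linked to RNA by ultraviolet light. The genes are FTH1 and FTL, which encode the heavy and light subunits of the iron store ferritin, TFRC, which encodes transferrin receptor 1, SLC40A1, which encodes the iron exporter ferroportin, SLC11A2, which encodes the iron importer DMT1, and ACO1 and IREB2, which encode the iron regulatory proteins IRP1 and IRP2. They were chosen by name from the 35309 identifiers of the cross-link count table, through the gene symbols of GENCODE, and all of their exon windows were used, 1752 of 2564772 exon windows listed for all genes. A window is a stretch of 50 nt of an exon, and a new window starts every 20 nt, so that a cross-link site is counted in up to 3 windows. The cells were Huh7, a human hepatoma line, in 3 groups of 3 libraries each: an immunoprecipitation with an MDH2 antibody (MDH2 IP), the size-matched input (SMI), which is a portion of the same kind of lysate set aside before the IP and run beside it on the gel, and an IP with isotype-matched IgG (IgG IP). All 3 groups came from cross-linked cells, and they differ in the antibody, with none for the SMI, and in the number of PCR cycles (14 for both IPs and 9 for the SMI). Nothing in the labels says that replicates came from separate cultures, so the p-values measure the spread between these libraries, which may be technical.

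Counts summed over all windows ranged from 5899998 to 9482501 per library in MDH2 IP, from 8311118 to 9788565 in SMI and from 1631267 to 2942816 in IgG IP, which makes the IgG IP the shallowest group. Hepatocyte transcripts were abundant, with 254 to 5587 exon counts of ALB and 484 to 10340 of AFP per library, while PTPRC of leukocytes had at most 5 and COL1A1 of fibroblasts at most 6, and HBB of red cells was not listed. Of 5 hepatocyte markers 1, APOA1, was called higher in MDH2 IP than in SMI (log2 fold change 0.65) and none lower. Of all 13923 genes tested, 8.6% were higher and 10.7% lower. Against IgG IP 0 of the 5 were called, where 0.302% of 12573 genes were higher and 1.80% lower. Whether the APOA1 difference bears on the iron genes was not tested. Levels are given as CPM, exon counts scaled to library size after TMM normalisation.

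Iron homeostasis in animal cells is controlled in large part after transcription. When iron is scarce, IRP1 and IRP2 bind a short hairpin of the mRNA, the iron-responsive element (IRE). An IRE in the 5′ UTR, as in ferritin and ferroportin mRNA, lets the bound IRP block translation, whereas IREs in the 3′ UTR, as in TFRC, protect the mRNA from decay. IRP1 is the apo form of cytosolic aconitase, and hepatocytes are a main site of iron storage.

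The hairpins were located first, because they set which exon windows matter. The motif, a bulged C, 5 stem bases of any kind and the loop CAGTGN, was searched in the sense strand of the MANE Select transcripts of GENCODE v44, with all 5 stem bases paired (G and T counted as a pair). It was present in the 5′ UTR of 19 of 19061 transcripts (0.0997%) and in the 3′ UTR of 122 (0.640%). Matches of FTH1, FTL and SLC40A1 lay in the 5′ UTR, and TFRC had 4 in its 3′ UTR. SLC11A2 had a match in the 3′ UTR with 4 of 5 stem bases paired. ACO1 and IREB2 had only such 4-pair matches, which 1939 transcripts (10.2%) hold somewhere, and these are not followed further. An IRE with another loop could not be found by this search, so the matches of a transcript may not be all of its IREs. The matches followed, called IREs below, are shown 5′ to 3′ as DNA letters of GRCh38. The bulged C and the 6-base loop are in capitals, and the labels of TFRC give the order of its matches.
FTH1, chr11:61967574-61967602, minus strand: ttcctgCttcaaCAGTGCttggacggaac
FTL, chr19:48965335-48965363, plus strand: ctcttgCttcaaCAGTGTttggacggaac
SLC40A1, chr2:189580661-189580689, minus strand: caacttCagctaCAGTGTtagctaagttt
TFRC, first, chr3:196050979-196051007, minus strand: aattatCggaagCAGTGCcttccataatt
TFRC, second, chr3:196050575-196050603, minus strand: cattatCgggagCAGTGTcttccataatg
TFRC, next, chr3:196050510-196050538, minus strand: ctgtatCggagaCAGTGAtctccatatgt
TFRC, last, chr3:196050463-196050491, minus strand: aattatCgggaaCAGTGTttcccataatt
SLC11A2, chr12:50988269-50988297, minus strand: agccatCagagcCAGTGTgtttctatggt

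The ferritin IREs lie in exon 1, with the loop 44 nt (FTH1) and 38 nt (FTL) from the 5′ end of the exon. The IREs of TFRC lie in exon 20, the last exon, with loops between 1189 and 1705 nt from its 5′ end. The SLC40A1 IRE lies in exon 4 of the count table's gene model and that of SLC11A2 in exon 21. The table was made with an older GENCODE release, v23. Windows per exon were taken from the span of window numbers, since some windows were not listed (117 of 121 were for exon 21 of SLC11A2). By this span exon 1 of FTL, exon 20 of TFRC and exon 21 of SLC11A2 were the same in both releases. Exon 1 of FTH1 had 16 windows against 15 and exon 4 of SLC40A1 21 against 17. Positions in exon 1 of FTH1 and exon 4 of SLC40A1 were set from the 3′ end, taken as the same in both releases. They may be off by up to 1 and 4 window steps towards the 5′ end.

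Ferritin transcripts dominated the iron genes in every library, and both were lower in MDH2 IP than in SMI. FTL (ENSG00000087086, chr19:48965309-48966879) had 3558, 3002 and 2317 exon counts in the 3 MDH2 IP libraries, compared with 6867, 8415 and 6661 in SMI and 709, 346 and 260 in IgG IP. Scaled to library size these were 701 ± 33.3 CPM (SD, n = 3) in MDH2 IP, compared with 1831 ± 219 in SMI and 566 ± 64.6 with IgG. Every MDH2 IP library lay below every SMI library and above every IgG IP library. The difference from IgG IP was not called (adjusted p = 0.521 in edgeR's quasi-likelihood test). The share of all genes whose libraries separate in this way was not computed, for FTL or for the genes below. The log2 fold change of MDH2 IP over SMI was -1.42 ± 0.15 (SE), a 2.68-fold lower level, with an adjusted p of 0.000300 in edgeR's quasi-likelihood test. Since the SMI is input from the same kind of lysate, the value compares recovery in the IP with the input and is no measure of the level of the mRNA in the cells.

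FTH1 (ENSG00000167996, chr11:61959718-61967634) had 4125, 4000 and 3066 exon counts in MDH2 IP, compared with 4236, 6183 and 5540 in SMI and 951, 543 and 370 with IgG. The scaled levels were 892 ± 103 CPM in MDH2 IP, compared with 1319 ± 109 in SMI and 815 ± 87.4 with IgG. The MDH2 IP and IgG IP libraries overlapped, and both groups lay below all SMI libraries. The log2 fold change of MDH2 IP over SMI was -0.60 ± 0.15 (adjusted p = 0.0215).

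TFRC (ENSG00000072274, chr3:196012511-196082153) was also lower in MDH2 IP. Its exon counts were 1489, 1067 and 1080 in MDH2 IP, compared with 1683, 1707 and 2200 in SMI and 422, 170 and 139 with IgG. This corresponds to 289 ± 30.3 CPM in MDH2 IP, compared with 466 ± 64.7 in SMI and 307 ± 60.1 with IgG. No MDH2 IP library reached the lowest SMI library, and the log2 fold change was -0.72 ± 0.15 (adjusted p = 0.0110).

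The transporters and the IRPs had lower levels and smaller differences. SLC40A1 (ENSG00000138449, chr2:189560590-189583758) was measured at 75.8 ± 4.86 CPM in MDH2 IP, compared with 95.8 ± 13.6 in SMI and 61.3 ± 24.6 with IgG, with 26 to 461 counts per library, and its log2 fold change of MDH2 IP over SMI was -0.37 ± 0.16 (adjusted p = 0.131). Its MDH2 IP libraries lay below all SMI libraries, but the difference did not pass the test. SLC11A2 (ENSG00000110911, chr12:50979401-51028566) was measured at 75.4 ± 24.0 CPM in MDH2 IP, compared with 92.4 ± 26.3 in SMI and 65.0 ± 26.1 with IgG, and the groups overlapped (log2 fold change -0.33 ± 0.27, adjusted p = 0.440). ACO1 (ENSG00000122729, chr9:32384603-32454769), the mRNA of IRP1, had 44.2 ± 3.88, 55.4 ± 10.2 and 39.8 ± 5.31 CPM in the same order (-0.36 ± 0.19, adjusted p = 0.213). IREB2 (ENSG00000136381, chr15:78437431-78501453), the mRNA of IRP2, was the most even of the 7 between MDH2 IP and SMI. It was measured at 214 ± 14.6 CPM in MDH2 IP, compared with 219 ± 8.26 in SMI and 165 ± 28.1 with IgG. Its log2 fold change over SMI was -0.07 ± 0.13 (adjusted p = 0.767). Its MDH2 IP libraries lay above all IgG IP libraries, a difference that was not called (adjusted p = 0.473 in edgeR's quasi-likelihood test).

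**Figure D1:**
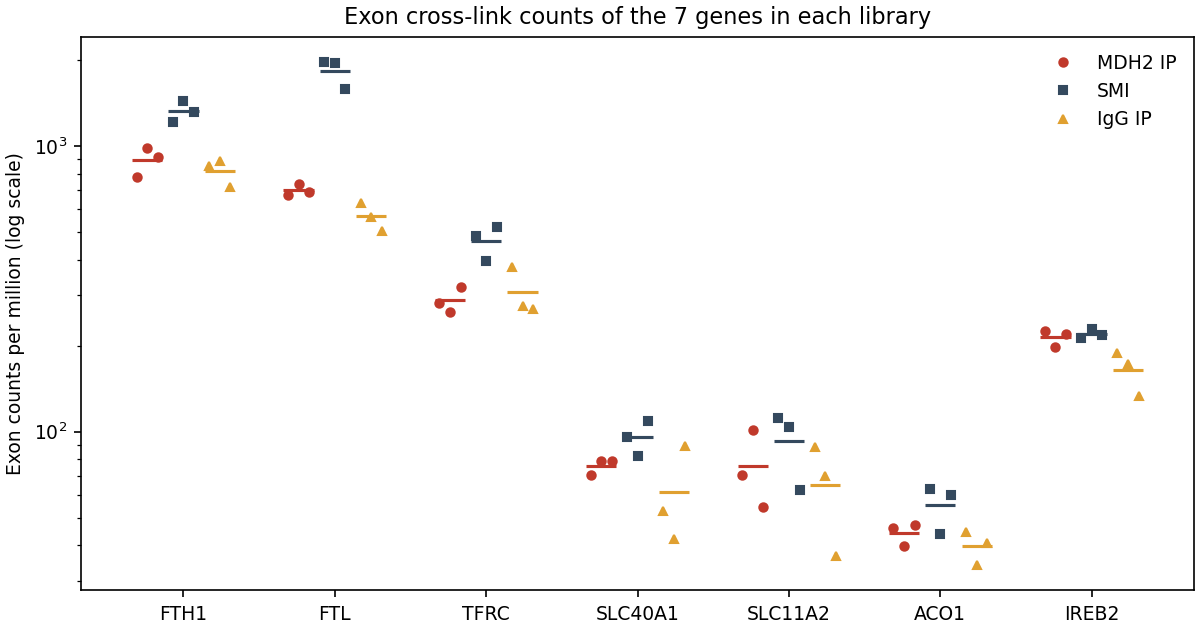
CPM of exon counts (log axis) of the 7 genes in each of the 9 libraries. Points are libraries, placed side by side in the order of the replicate numbers, and lines are group means. FTL shows the widest gap between SMI (1831 CPM on average) and the IPs (701 and 566), and IREB2 the smallest between MDH2 IP and SMI.

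In MDH2 IP against SMI, 3 of the 7 genes were thus called lower (adjusted p up to 0.05) and none was called higher, where 10.7% of all 13923 genes tested were lower and 8.6% higher. The replicate numbers were taken to pair the MDH2 IP and SMI libraries. This was inferred from the same data and not from the labels. It is weak for replicate 1, where deviations of SMI correlated at 0.115 with the same number and 0.0618 with MDH2 IP replicate 2. With the number as a block 6 of 7 were called lower, all but IREB2, with 20.6% of all genes lower and 21.1% higher. The blocked adjusted p was 0.0144 for SLC40A1, 0.0335 for SLC11A2 and 0.0482 for ACO1, with log2 fold changes of -0.36, -0.33 and -0.35. Without SMI replicate 1 or without MDH2 IP replicate 1 the call of TFRC was lost (adjusted p = 0.0597 and 0.0615), as was that of FTH1 without either or without SMI replicate 2 (0.0621, 0.108 and 0.0634). With intron windows added to the sums, FTL alone was called.

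Against the IgG IP no member was called by edgeR, with 0.302% of 12573 genes higher and 1.80% lower. None had an unadjusted p under 0.05, and DESeq2 called none. The log2 fold changes of MDH2 IP over IgG IP were 0.27 ± 0.18 for FTL, 0.09 ± 0.19 for FTH1, -0.14 ± 0.20 for TFRC, 0.29 ± 0.28 for SLC40A1, 0.14 ± 0.33 for SLC11A2, 0.10 ± 0.26 for ACO1 and 0.33 ± 0.20 for IREB2. The depth of the IgG IP limits this comparison, with as few as 19 counts of SLC11A2 and 21 of ACO1 in a library.

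In IgG IP against SMI both ferritin mRNAs were called lower. FTL was called lower with a log2 fold change of -1.66 ± 0.20 (adjusted p = 0.000214) and FTH1 with -0.66 ± 0.19 (adjusted p = 0.0346), where 5.98% of 12788 genes were lower and 9.58% higher. TFRC had -0.56 ± 0.21 (adjusted p = 0.0893), and the other members had values between -0.63 and -0.37. This comparison shares its SMI libraries with that of MDH2 IP. The call of FTH1 was lost without any one of the 6 libraries (adjusted p of 0.0524 to 0.0910).

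**Figure D2:**
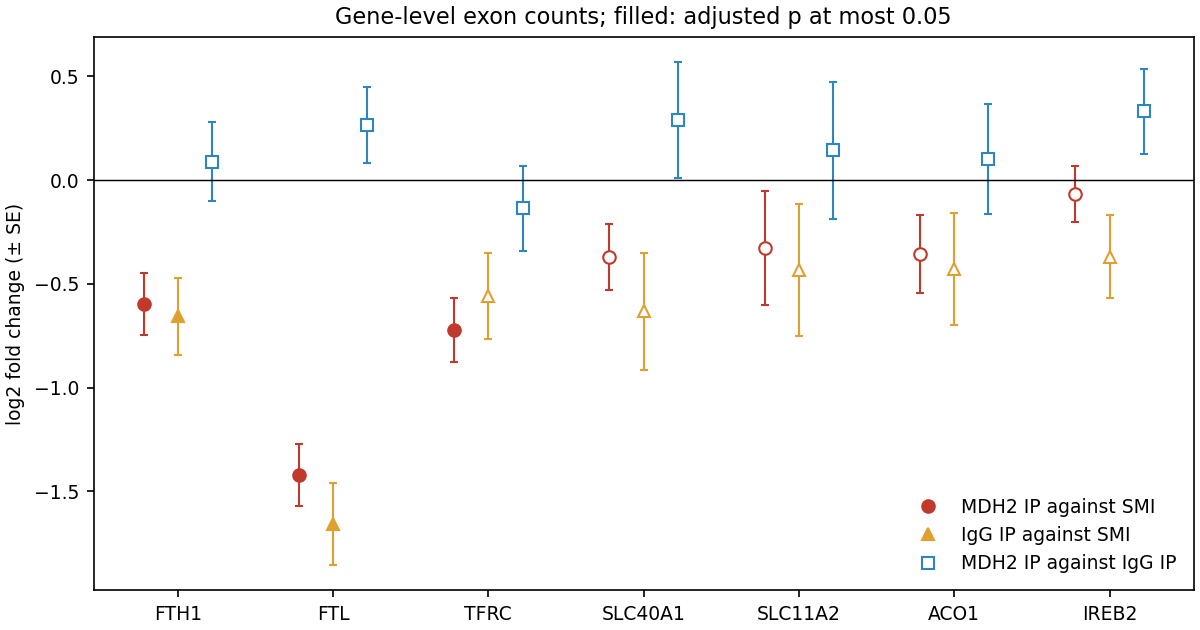
Log2 fold changes (y axis, ± SE, 3 libraries per group) of the gene-level exon counts of each gene in the 3 comparisons. Filled symbols have an adjusted p of at most 0.05: FTL, FTH1 and TFRC in MDH2 IP against SMI and FTL and FTH1 in IgG IP against SMI, all below 0. The MDH2 IP against IgG IP values lie between -0.14 and 0.33.

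Per listed exon window, which puts genes of different length roughly on a common scale, the order of levels was led by FTL and FTH1 in all 3 groups. Windows that were not listed did not enter the divisor. In SMI, FTL had 46.9 ± 5.60 CPM per window, FTH1 14.7 ± 1.21, TFRC 1.38 ± 0.191, SLC40A1 0.526 ± 0.0745, IREB2 0.473 ± 0.0178, SLC11A2 0.239 ± 0.0680 and ACO1 0.219 ± 0.0404. In MDH2 IP the values were 18.0 ± 0.854 for FTL, 9.92 ± 1.14 for FTH1, 0.854 ± 0.0898 for TFRC, 0.463 ± 0.0314 for IREB2, 0.417 ± 0.0267 for SLC40A1, 0.195 ± 0.0620 for SLC11A2 and 0.175 ± 0.0153 for ACO1. The ranges of SLC40A1 and IREB2 overlapped in every group, as did those of SLC11A2 and ACO1, so those neighbours were not ordered by these data.

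Single exons showed where along each mRNA the difference lay. In MDH2 IP against SMI, 69 exons of the members were tested, 6 were called lower and none higher, where 5.52% of 58684 exons were lower and 2.66% higher. With the replicate block 13 were lower, with 9.16% of all exons lower and 6.86% higher. All 4 exons of FTL were lower, with the smallest change in the first exon: -1.27 ± 0.16 in exon 1 (adjusted p = 8.78e-05), -1.79 ± 0.20 in exon 2 (1.58e-05), -1.91 ± 0.20 in exon 3 (6.31e-06) and -1.90 ± 0.18 in exon 4 (3.23e-06).

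In FTH1 exon 3 was called lower and exon 1 was not. Exon 1, which holds the IRE, had 2162, 2246 and 1874 counts in MDH2 IP, compared with 1759, 2282 and 2390 in SMI and 528, 322 and 238 with IgG. Its level did not pass the test (log2 fold change -0.27 ± 0.17, adjusted p = 0.387, and 0.0489 with the replicate block). Exon 3, which in this gene model holds the last exons of the MANE Select transcript, had 1911, 1706 and 1177 counts in MDH2 IP against 2452, 3875 and 3123 in SMI. It was lower by -1.25 ± 0.17 (adjusted p = 0.000145). Exon 4, the highest exon number of FTH1, had at most 2 counts in a library and was not tested.

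In TFRC the last exon was the only one called lower without the block, and with it exon 18 was called too (-0.71, adjusted p = 0.113 without and 0.0316 with the block). Exon 20, with the 4 IREs found by the search, had 607, 437 and 446 counts in MDH2 IP. It had 1014, 1015 and 1387 in SMI and 181, 100 and 60 with IgG. Its log2 fold change over SMI was -1.47 ± 0.20 (adjusted p = 0.000127). The first exon had 53, 47 and 60 counts in MDH2 IP against 43, 30 and 43 in SMI (0.22 ± 0.34, adjusted p = 0.774). Of the 18 TFRC exons tested, 12 had values below 0, with a median of -0.37.

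Among the transporters and IRPs no exon passed the test against SMI. The last exon of SLC11A2 came closest, with 36, 44 and 17 counts in MDH2 IP against 59, 72 and 42 in SMI (-1.13 ± 0.35, adjusted p = 0.0568, and 0.00547 with the block). The last exon of SLC40A1 had 117, 76 and 117 counts in MDH2 IP against 139, 138 and 191 in SMI (-0.83 ± 0.27, adjusted p = 0.0689, and 0.00107 with the block). The last exon of IREB2 had -0.45 ± 0.20 (adjusted p = 0.194, and 0.0235 with the block). The block also called 2 internal exons lower. Exon 21 of SLC11A2, which holds its IRE, had 111, 141 and 50 counts in MDH2 IP against 146, 158 and 85 in SMI (-0.68 ± 0.32, adjusted p = 0.221, and 0.0154 with the block). Exon 10 of SLC40A1 had 27, 14 and 2 against 21, 30 and 36 (-1.37 ± 0.51, adjusted p = 0.115, and 0.0290 with the block). Exon 1 of SLC40A1, SLC11A2 and IREB2 was not listed in the count table.

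Exon 4 of SLC40A1, with the ferroportin 5′ UTR and its IRE, held 81, 82 and 67 counts in MDH2 IP, compared with 53, 53 and 57 in SMI and 8, 3 and 3 with IgG. The MDH2 IP values over SMI did not pass the test (0.23 ± 0.28, adjusted p = 0.688). Over IgG IP the log2 fold change was 1.56 ± 0.54, which missed the threshold (adjusted p = 0.146). It was the only exon of the members with an unadjusted p under 0.05 in that comparison, in which edgeR and DESeq2 called none of the 44 member exons tested and edgeR called 0.184% of 42945 exons higher and 1.25% lower.

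The share of a gene's exon counts that fell in its first or last exon does not depend on the scaling between libraries. For FTH1 the first exon held 52.4%, 56.2% and 61.1% of exon counts in MDH2 IP, compared with 41.5%, 36.9% and 43.1% in SMI and 55.5%, 59.3% and 64.3% with IgG. For FTL it held 53.2%, 52.3% and 52.5% in MDH2 IP, compared with 43.6%, 39.6% and 44.05% in SMI and 58.1%, 53.5% and 55.0% with IgG. The means of MDH2 IP exceeded those of SMI by 16.0 and 10.3 percentage points, with no overlap between the groups (p = 0.1 each in an exact two-sided permutation test, the smallest p that 3 against 3 libraries allow). Against the IgG IP the differences were -3.15 (p = 0.5) and -2.86 points (p = 0.1, exact permutation test), where 10.1% of all genes were higher and 8.99% lower without overlap.

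For TFRC the last exon held 40.8%, 41.0% and 41.3% in MDH2 IP, compared with 60.2%, 59.5% and 63.0% in SMI and 42.9%, 58.8% and 43.2% with IgG. The difference of MDH2 IP from SMI was -19.9 points (p = 0.1, exact permutation test), and that from the IgG IP, whose replicate 2 stood apart, was -7.29 points (p = 0.1, exact permutation test, with 11.5% of all genes lower and 13.6% higher without overlap), or -2.02 points without that replicate. The first exon of TFRC held 4.51% ± 1.00 in MDH2 IP and 2.09% ± 0.42 in SMI, again without overlap. The last exon of FTL held 23.3% ± 1.37 in MDH2 IP against 28.9% ± 1.00 in SMI, and that of IREB2 36.7% ± 2.00 against 42.7% ± 1.44, each without overlap (p = 0.1, exact permutation test). Against the IgG IP the last exon of IREB2 differed by -4.94 points, also without overlap (p = 0.1, exact permutation test), and that of FTL by 0.84 points (p = 0.9). Shares were computed for the 4 members with at least 30 exon counts in every library. A shift of this kind was common: over all genes with that minimum and a count in the exon, the first-exon share was higher without overlap in 40.9% and lower in 1.48%, and the last-exon share was lower without overlap in 35.9% and higher in 5.77%. The median differences were 1.84 and -2.57 points.

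**Figure D3:**
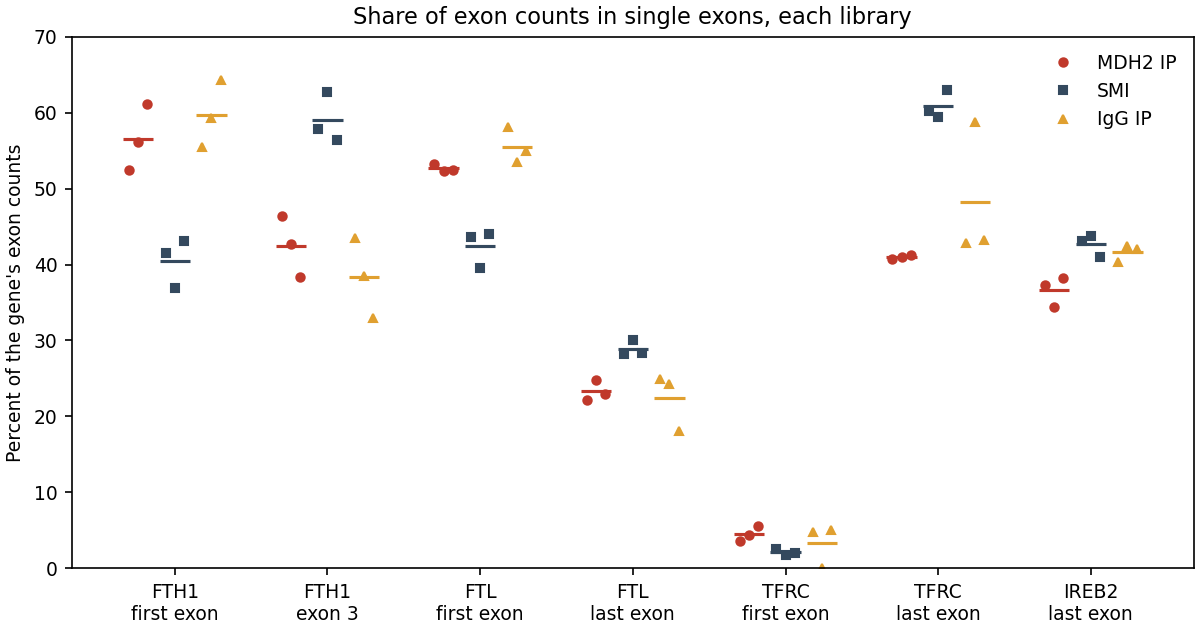
Percent of a gene's exon counts (y axis) in the exon named below, in each library (points) with group means (lines). The 3 SMI libraries lie below both IPs for the first exon of FTH1 and FTL, and above all MDH2 IP libraries for FTH1 exon 3 and for the last exons of FTL, TFRC and IREB2.

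A test of each exon against the other exons of its gene, run over all 54621 exons of the libraries, gave the size of these shifts with a common estimate of the spread. Without the block, exon 11 of TFRC, an internal exon, was the only member exon called, where 0.730% of exons were relatively higher and 0.183% lower (relative log2 fold change 1.10, adjusted p = 0.0163), with 51, 37 and 56 counts in MDH2 IP against 15, 36 and 26 in SMI. That call was lost without SMI replicate 1 or 3 and without MDH2 IP replicate 1 or 3, with adjusted p from 0.0145 to 0.212 over the left-out libraries. With the replicate block, where 2.49% of exons were higher and 1.08% lower, exon 1 of FTH1 was relatively higher by 0.33 (adjusted p = 0.0414) and exon 3 lower (-0.33, 0.0435), and exon 1 of TFRC was higher by 0.76 (0.0246) and exon 20 lower (-0.40, 0.0147). Of the internal exons of TFRC, exon 5 (0.69, 0.00389) and exon 11 (1.10, 0.00213) were relatively higher. FTL exon 1 had 0.22 (0.280). The background for first exons with the block was 14.7% higher and 0.102% lower of 4882 first exons, and without it 4.65% higher and 0.041% lower.

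Within exon 1 of both ferritin mRNAs the values of MDH2 IP over SMI reached their lowest past the start codon. The windows with the IRE loop had values near 0 in FTH1 and of -0.21 and -0.92 in FTL. In FTL the value of -0.21 rests mostly on counts upstream of the loop. The 5′ UTR takes up the first 209 nt of this exon in FTH1 and the first 199 nt in FTL. A window was called lower by its adjusted two-sided p together with a drop to -1 or below on the log2 scale. In FTH1, the 2 windows that hold the IRE loop had 138, 171 and 148 and 109, 121 and 97 counts in MDH2 IP, 115, 142 and 104 and 99, 126 and 91 in SMI and 49, 31 and 16 and 30, 16 and 12 in IgG IP. Their log2 fold changes over SMI were 0.20 ± 0.25 and -0.10 ± 0.24, and over IgG IP -0.30 ± 0.31 and -0.07 ± 0.33 (adjusted p = 1 for all 4).

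The FTH1 window with the most MDH2 IP counts was centred 117.5 nt from the 5′ end, downstream of the IRE. It had 383, 385 and 340 counts in MDH2 IP, compared with 209, 266 and 346 in SMI and 90, 61 and 51 with IgG. Against SMI its log2 fold change was 0.29 ± 0.22 and against IgG IP -0.17 ± 0.27, neither past the threshold. Further downstream the values were below 0: -0.37 ± 0.22 at 157.5 nt, -1.24 ± 0.23 at 177.5 nt and -2.05 ± 0.27 at 257.5 nt. Of the windows tested, 2 of 11 centred in the 5′ UTR and 4 of 4 centred past the start codon were called lower, with medians of -0.08 and -1.65, where 9.49% of all 51108 windows were lower by the same rule.

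In FTL the windows with the IRE loop held few counts. The first window had 50, 51 and 39 counts in MDH2 IP, compared with 45, 62 and 37 in SMI and 13, 6 and 7 with IgG, with a log2 fold change over SMI of -0.21 ± 0.28. The second had 14, 8 and 8 in MDH2 IP, compared with 20, 18 and 12 in SMI and at most 1 with IgG. Its value over SMI was -0.92 ± 0.38 (two-sided adjusted p = 0.336). The second window covers all of the first but its initial 20 nt. Most counts of the first window therefore lay in those 20 nt, upstream of the loop, and its value describes mainly that stretch. The window with the most MDH2 IP counts was centred at 124.5 nt, with 263, 237 and 167 counts against 333, 334 and 299 in SMI (-0.73 ± 0.22, two-sided adjusted p = 0.0794). The lowest value of the exon was -2.05 ± 0.24 at 264.5 nt. Of the windows tested, 2 of 9 in the 5′ UTR and 5 of 5 past the start codon were lower, with medians of -0.73 and -1.73.

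**Figure D4:**
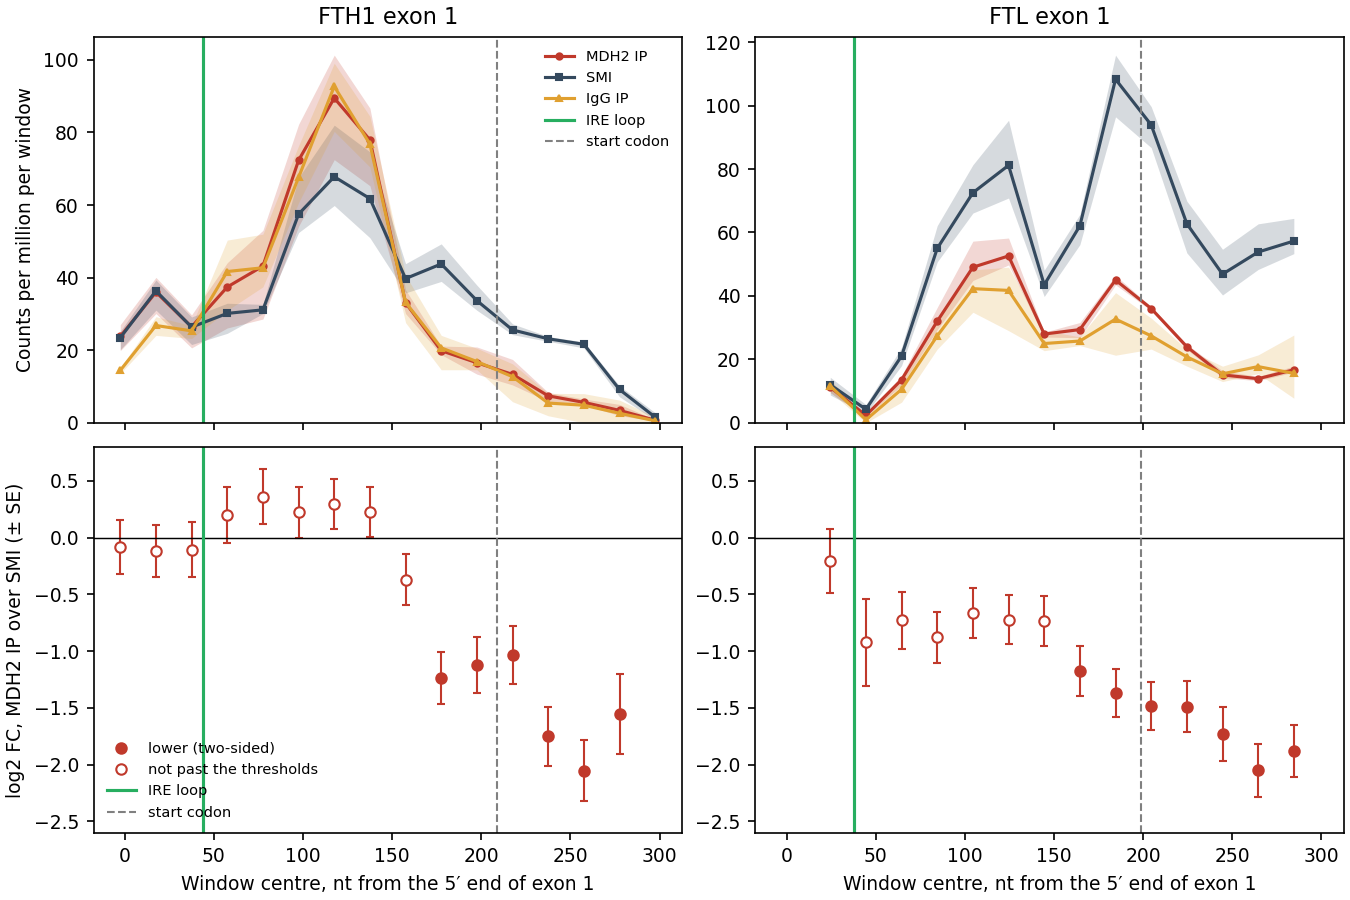
Exon 1 of FTH1 (left) and FTL (right) by distance of the window centre from the 5′ end of the exon (x axis, nt). Top: mean CPM per window with the range of the 3 libraries as a band. Bottom: log2 fold change of MDH2 IP over SMI ± SE, filled where called lower. The green line marks the IRE loop and the dashed line the start codon. Values near the IRE lie close to 0 in FTH1 and reach about -2.05 past the start codon in both.

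Windows centred in the 5′ UTR held 93.4%, 93.9% and 94.5% of FTH1 exon 1 counts in MDH2 IP, compared with 84.5%, 84.5% and 85.2% in SMI and 92.2%, 93.5% and 98.3% with IgG. In FTL the shares were 71.3%, 72.9% and 69.7% in MDH2 IP, compared with 59.0%, 59.7% and 59.4% in SMI and 66.5%, 71.9% and 69.9% with IgG. The MDH2 IP exceeded the SMI by 9.16 and 11.9 points without overlap (p = 0.1 each, exact permutation test), and differed from the IgG IP by -0.75 (p = 0.9) and 1.86 points (p = 0.5). This split at the start codon was chosen after the data were examined. It was not computed over all genes, so whether such a separation is particular to ferritin was not tested. In exon 4 of SLC40A1, 19 of 20 listed windows were centred in the 5′ UTR. There the MDH2 IP differed from SMI by 1.80 points, with overlap (p = 0.4, exact permutation test). It differed from IgG IP, which had 8, 3 and 3 counts in this exon, by -4.36 points (p = 0.1, exact permutation test). For the share of the whole first exon, a rise over SMI without overlap was seen in 40.9% of the 2915 genes compared.

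In TFRC, the 9 windows with the loop of an IRE found by the search are 6.25% of the 144 windows of exon 20. They held 17, 9 and 8 counts in MDH2 IP, compared with 23, 13 and 47 in SMI and 6, 6 and 1 with IgG. These were 2.80%, 2.06% and 1.79% of the exon's counts in MDH2 IP against 2.27%, 1.28% and 3.39% in SMI. None of the 9 had enough counts to be tested. Outside these 9 windows, 19 windows of the exon were tested against SMI and 12 were lower, with a median of -1.50. The lowest was centred at 1515.5 nt, with 3, 2 and 3 counts in MDH2 IP against 17, 10 and 14 in SMI (-2.48 ± 0.53, two-sided adjusted p = 0.00187). It reached the count minimum only through SMI. Where counts are this low, the minimum favours windows that are high in 1 group, so these values depend in part on the filter. The window with the most MDH2 IP counts was centred at 35.5 nt, with 20, 9 and 10 counts in MDH2 IP against 7, 7 and 5 in SMI. It had higher counts in MDH2 IP but missed the count minimum and was not tested. In exon 1 of TFRC that window had 19, 12 and 16 counts in MDH2 IP against 13, 10 and 12 in SMI (0.25 ± 0.37, adjusted p = 1).

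**Figure D5:**
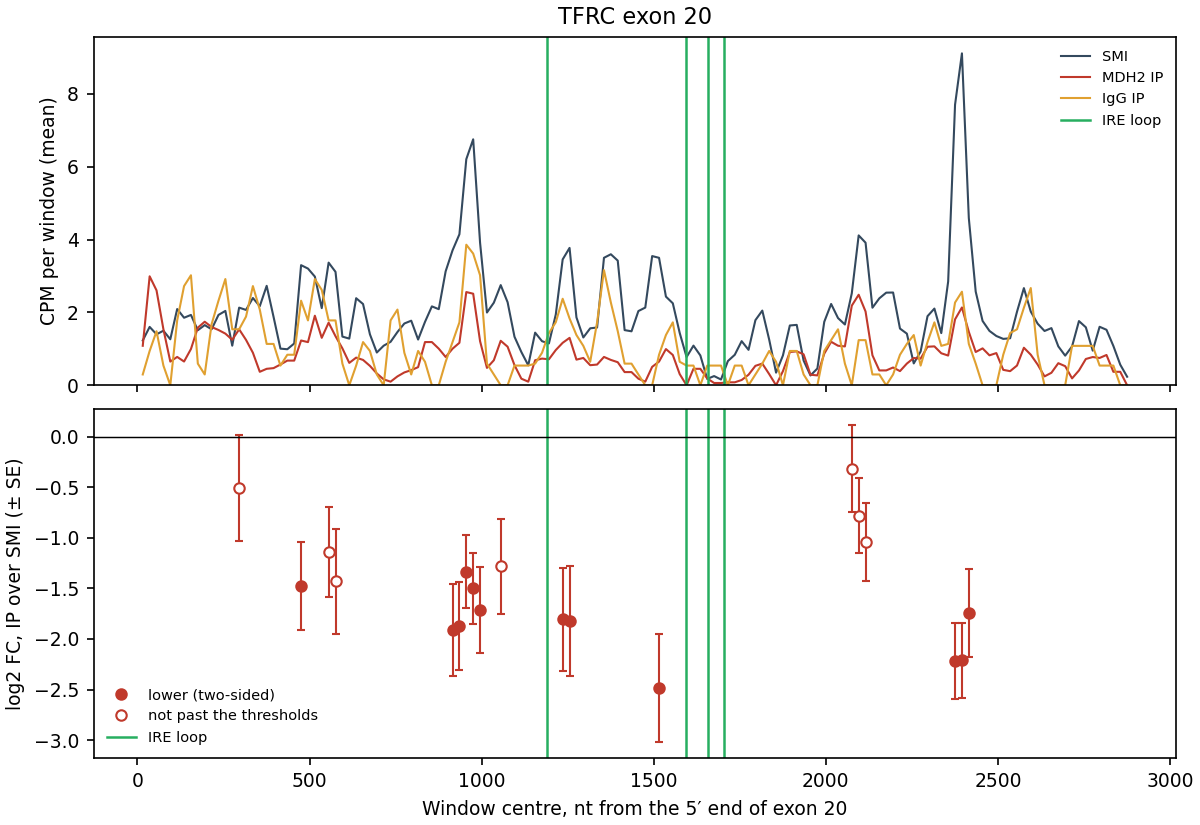
Exon 20 of TFRC by distance of the window centre from its 5′ end (x axis, nt). Top: mean CPM per window of the 3 libraries of each group. Bottom: log2 fold change of MDH2 IP over SMI ± SE for the 19 windows tested, filled where called lower. Green lines mark the 4 IRE loops found by the search, where counts are low in all groups, and all 19 values lie below 0. A window low in MDH2 IP could enter the test through its SMI counts alone.

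In the last exon of FTL the window with the most MDH2 IP counts had 121, 119 and 85 against 261, 332 and 223 in SMI (-1.50 ± 0.23, two-sided adjusted p = 0.000188). In the last exons of SLC40A1, SLC11A2, ACO1 and IREB2 and the first of ACO1, such windows held at most 13 counts in a library and were not tested.

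The IRE windows of SLC40A1 held 3 counts in MDH2 IP against 0 in SMI and IgG IP, and those of SLC11A2 held 4 in MDH2 IP and 1 in SMI, too few to compare. Exon 4 of SLC40A1 had its counts further downstream. Its window with the most MDH2 IP counts was centred 243.5 nt from the 5′ end, in the 5′ UTR, with 13, 17 and 12 counts in MDH2 IP, compared with 4, 5 and 8 in SMI and 0, 0 and 1 with IgG. All MDH2 IP libraries were above all control libraries. The window was named for having the most MDH2 IP counts of its exon. It reached the count minimum for testing only through the MDH2 IP libraries, so this separation was in part fixed by the choice. Against SMI its log2 fold change was 1.13 ± 0.43 (one-sided adjusted p = 0.118) and against IgG IP 2.68 ± 0.97 (0.459), so neither passed.

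Over the exon windows of all members, 0 of 125 tested were enriched in MDH2 IP over SMI by edgeR (one-sided adjusted p up to 0.05 with a rise of 1 or more on the log2 scale), where 4.04% of all 51108 windows were. The SLC40A1 window was the single one with an unadjusted p under 0.05, and DESeq2 called none. That window reached the count minimum only through the MDH2 IP. Of the 125, 110 had values below 0, and 67 were called lower by the two-sided test: 31 of 38 of FTL, 23 of 43 of FTH1 and 13 of 42 of TFRC, where 9.49% of all windows were. Some of the TFRC windows called lower reached the count minimum only through SMI. Over IgG IP 0 of 83 were enriched, where 0.148% of 30427 windows were, and DESeq2 called none. An unadjusted p under 0.05 was seen for 7: 4 of FTH1, 2 of FTL and 1 of SLC40A1. The share of all windows under that p is not given. In this comparison too a window could reach the count minimum through the MDH2 IP alone. By the two-sided test 0 of the 83 were lower than in IgG IP (4.25% of all windows). Of the intron windows of the members, 1 of 15 was enriched over SMI, where 13.3% of all 4316 intron windows were. Over IgG IP 0 of 4 were enriched by edgeR or DESeq2 and 0 had an unadjusted p under 0.05, where edgeR called 0.978% of 2454. The intron window enriched over SMI reached the count minimum only through the MDH2 IP.

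Of the 25 ferritin pseudogenes listed, none had more than 103 counts over the 9 libraries, against 32135 of FTL and 29014 of FTH1. BEST1, which overlaps FTH1 on the opposite strand, had 2 to 305 exon counts per library.

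Of 39 genes in 3 lists, 35 were tested in MDH2 IP against SMI and 4 were called lower, beside 10.7% of all genes. Against IgG IP edgeR called 0 of 34, with 3 at an unadjusted p under 0.05, and DESeq2 called 0. In the list of iron uptake, storage and transport, 3 of 11 were lower: PCBP2, which delivers iron to ferritin and binds RNA (-0.66 ± 0.13, adjusted p = 0.00950), and the metal transporters SLC39A8 (-1.21 ± 0.36, 0.0408) and SLC39A14 (-0.63 ± 0.19, 0.0438). Without SMI replicate 1 none of the 3 was called, and without SMI replicate 2 or MDH2 IP replicate 1 a single one was. The median of that list was -0.13, and the median of all genes was 0.005. In iron sensing and hepcidin control, SMAD4, which carries the BMP signal to the hepcidin gene, was lower (-0.90 ± 0.14, adjusted p = 0.00310), 1 of 10 tested, and the median was -0.04. None of the 14 genes of iron-sulfur cluster and haem synthesis was called (median -0.03).

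The level of FTL across the 9 libraries was most like that of RPLP0, a ribosomal protein mRNA (Pearson r = 0.989 of log2 CPM), SELENOP, a selenoprotein made by the liver (0.988), and ENSG00000280102 (0.982), among 12037 genes. For FTH1 the closest were PAWR (0.973), RPL21 (0.967) and RNA5SP149 (0.964). The libraries fall into 3 groups, and these correlations describe the shared differences between the groups.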

How the data were processed

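The authors cross-linked Huh7 cells, made eCLIP libraries, removed PCR duplicates by UMI, trimmed reads with cutadapt, aligned them with STAR, keeping reads with up to 10 alignments, and counted cross-link sites per window with htseq-clip on GRCh38 with GENCODE v23. The deposited values are raw counts per window of 50 nt with a step of 20 nt, for 15767969 windows and all 9 libraries. Because neighbouring windows overlap, a sum over windows counts a site up to 3 times. Groups came from the sample labels. The members, lists and tests were chosen with earlier results of these data known.

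Of 34950 Ensembl identifiers, 33751 (96.6%) matched GENCODE v44, which gave the symbols and, with GRCh38, the sequences. Counts were summed over exon windows per gene and per exon. Features that reached 10 counts in 3 or more of the libraries compared entered the fits of edgeR 4.0.16 (R 4.3.3). These used TMM scaling, the quasi-likelihood test with its default prior count, and Benjamini-Hochberg adjustment over all features. A prior count of 2 was used only for the log2 CPM of the correlations. Window p-values were one-sided and multiplied by the number of overlapping windows tested, and a window was called enriched at a log2 fold change of at least 1. Windows called lower used the two-sided p. Exon usage was tested with edgeR's diffSpliceDGE, added after the data were examined. Alternatives were DESeq2 1.42.0, other scaling, other count filters, all 9 libraries in one fit, the replicate number as a block, each library left out, non-overlapping windows, and intron windows added. Named were all members, the window with the most MDH2 IP counts in each first and last exon, called list genes (at most 5 per list), and the 3 genes most like FTL and FTH1. Tables and figures were made with Python 3.11.15, pandas 2.3.3 and matplotlib 3.10.9.

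Deviations from the group means of libraries with the same number correlated at 0.115, 0.590 and 0.595 between MDH2 IP and SMI, all over 0.1, so these numbers were taken to pair the libraries. The pairing comes from the data, as the labels give only numbers. In simulated counts for MDH2 IP against SMI with 200 features raised 4-fold, 97.5% were recovered among 13552 genes, 86.5% among 53410 exons and 96.0% among 43692 windows. The raised features were not drawn from those with the lowest mean levels. Decreases, smaller changes and comparisons with IgG IP were not simulated, so recovery of those is not known. Depth limits precision most in IgG IP, and intervals cover these libraries only. The result of a further list of mRNAs is not reported here.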

Additional observations from a re-analysis of the deposited data

Results flagged for a closer look

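A signal lay outside the exon windows that the comparisons use. In intron 2 of FTL, window 34 had 12, 10 and 10 counts in MDH2 IP, 1, 3 and 0 in SMI and 3, 1 and 0 in IgG IP. Scaled to library size, the MDH2 IP libraries had 2.27 to 2.98 CPM and lay above all SMI libraries (at most 0.694 CPM), but overlapped the IgG IP libraries (0 to 2.68 CPM). The log2 fold change of MDH2 IP over SMI was 2.73 ± 0.73 (one-sided adjusted p = 0.0213 by edgeR, 0.0112 with the replicate block and 0.0676 by DESeq2). Over IgG IP it was 0.40 (adjusted p = 1). It was the one enriched of 15 intron windows of the members tested against SMI, where 13.3% of all 4316 intron windows tested were enriched. The window reached the count minimum only through the MDH2 IP, where it was high. An intron window near 0 in SMI can be tested only in that way, which bears on the share of all intron windows too.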

How the results depend on the processing

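Of the 7 genes in MDH2 IP against SMI, 3 were called, 6 with the replicate block and 1 with exons and introns summed, and 1 to 3 when a library was left out. Of the member exons in that comparison 6 were called and 13 with the replicate block, and 6 to 8 with a library left out. In IgG IP against SMI 2 genes were called, 1 with total counts as library size, 1 with windows that do not overlap, 5 with exons and introns, and 1 to 2 with a library left out. The replicate block gave 4 there, but same-number deviations correlated at only 0.0300, 0.274 and 0.301, and SMI replicate 1 correlated best with another number. In MDH2 IP against IgG IP 1 gene was called with exons and introns and 0 otherwise. With total counts as library size, which moves the median of all windows from 0.05 to 0.62, 1 window was enriched over SMI in place of 0. Directions turned in MDH2 IP against SMI for IREB2 (0.0954) and FTH1 exon 1 (0.0734) under total counts, and for TFRC exon 1, which ranged from -0.0780 to 0.405 with a library left out. Against IgG IP, leaving out a library gave -0.00121 to 0.174 for FTH1, -0.0315 to 0.248 for its exon 1, -0.136 to 0.438 for SLC11A2, -0.226 to 0.0289 for TFRC and -0.325 to 1.03 for TFRC exon 1. There the direction also turned for TFRC with introns (0.408), TFRC exon 20 with no count filter (0.0478) and ACO1 with windows that do not overlap (-0.0233). None of these values was called, and the cause was not tested. Over all genes in MDH2 IP against SMI, 1198 were higher (866 to 2940 under the alternatives) and 1496 lower (917 to 3061), and for exons 1563 (600 to 5681) and 3239 (1806 to 5378). For windows 2066 were enriched (1023 to 12171). Against IgG IP 38 genes were higher (29 to 719) and 226 lower (167 to 1203), with 79 (79 to 364) and 535 (333 to 1008) exons and 45 windows (21 to 145). In IgG IP against SMI 1225 genes were higher (1121 to 2579) and 765 lower (567 to 1789). A fit without a count filter was not run for windows.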
